A study of Mus musculus with 13 samples.

Results

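The comparison set SM1 tumours treated with dabrafenib against SM1 tumours treated with trametinib, in mice that had all received pmel-1 cells. It rests on 4 of the 13 arrays of the series, 2 for each drug, chosen by their treatment labels and described over 13785 genes. SM1 is a mouse melanoma line driven by BRAF V600E and grown as an implant in C57BL/6 hosts. Splenocytes of pmel-1 mice, whose T cells bear a receptor for gp100, the product of Pmel, were given by adoptive transfer to the animals of both drug groups, so the transfer is shared and is not what differs. The same pmel-1 transfer was given to the vehicle group (2 arrays) and to the group given both drugs (3 arrays), which serve here as context. Tumours of mice that received C57BL/6 splenocytes, with vehicle (2 arrays) or with both drugs (2 arrays), enter only the estimate of the spread, the choice of probe sets and the filter. RNA came from whole tumours, so host cells, transferred cells and melanoma cells were measured together, and fewer cells of a type cannot be told apart from less RNA per cell. Neither doses, times and ages nor the number of animals behind each group are stated in the sources used here, and the p-values therefore cover only the spread among the arrays, which may be technical.

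Dabrafenib binds the mutant BRAF kinase and trametinib binds MEK, the kinase that BRAF activates and that in turn activates ERK. In cells with BRAF V600E both block the same chain, and a fall of the ERK-induced Dusp and Spry feedback genes is the usual readout. In cells with normal BRAF, such as T cells and macrophages, a MEK inhibitor still blocks ERK, whereas a BRAF inhibitor does not and can raise ERK signalling through RAF dimers. Interferon gamma, made by activated T cells and NK cells, induces guanylate-binding proteins, Cxcl9, the immunoproteasome and, through Ciita, the MHC class II genes.

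Tumours given dabrafenib carried more RNA of antigen presentation, interferon gamma response and leukocyte genes than tumours given trametinib. They carried less RNA of the endothelial tight junction gene Cldn5 and of the heat shock pair Hspa1a and Hspa1b, which the probe sets may not separate. Of the 13785 genes tested 107 (0.776%) passed an adjusted p of 0.05, 81 (0.588%) higher and 26 (0.189%) lower with dabrafenib. When each array was centred on its median the counts were 81 higher and 48 lower. At least a 2-fold difference was reached by 68 genes (0.493%), 59 higher and 9 lower. All 107 had arrays that did not overlap, which by itself is common here, since both dabrafenib arrays lay above both trametinib arrays for 20.7% of all genes and below for 19.6%. An unadjusted limma p under 0.05 was found for 1620 genes (11.8%), 931 higher and 689 lower with dabrafenib. Over all 13785 genes 7118 differences were positive and 6666 negative. The number of calls depended on single arrays. It was 283 without dabrafenib array 1, 8 without dabrafenib array 2, 23 without trametinib array 1 and 0 without trametinib array 2, and 0 calls were kept through all 4 omissions. With only these 4 arrays in the fit 0 genes passed in limma, against 1245 at an unadjusted p under 0.05.

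**Figure D1:**
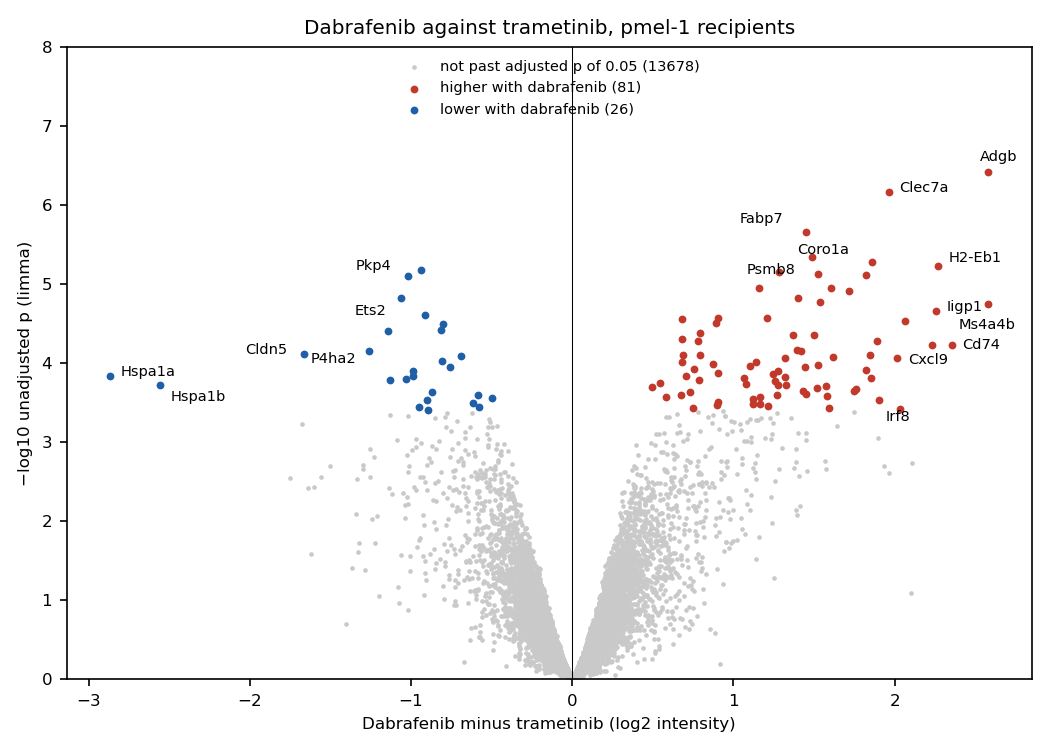
Difference between dabrafenib and trametinib (log2 intensity, horizontal) against -log10 of the unadjusted limma p (vertical) for 13785 genes, with the 81 higher genes in red and the 26 lower genes in blue. MHC class II and interferon gamma genes such as Cd74, H2-Eb1, Iigp1 and Cxcl9 lie at the right edge, and Hspa1a and Hspa1b lie alone at the left edge.

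Values are log2 intensities, on which a difference of 1 is a 2-fold change, and differences are given as dabrafenib minus trametinib ± SE. A level under 5.79, the filter used here, is taken as not well above background. RNA measures differed more between arrays of the same drug than between drugs. The 3′ minus 5′ log2 difference of the actin and Gapdh control probe sets was 0.60 and 1.65 on the dabrafenib arrays and 1.22 and 0.68 on the trametinib arrays. Adipocyte RNA followed the same pattern, and Adipoq read 4.92 and 10.32 with dabrafenib and 9.30 and 5.41 with trametinib. Array 2 of dabrafenib and array 1 of trametinib therefore both carried adipocyte RNA, and with both left out 3 genes passed, all higher. On the vehicle arrays of pmel-1 recipients the 3′ minus 5′ difference was 0.22 and 0.18, lower than on each array of the 2 drugs. Changes against vehicle therefore cannot be told apart from this difference in RNA. Correlations across genes were 0.983 between the dabrafenib arrays, 0.993 between the trametinib arrays and 0.976 to 0.988 between drugs. The defining markers of SM1 as a melanoma were high on all 4 arrays, with Dct between 14.81 and 14.93 and Sox10 between 13.51 and 13.62. Tyrp1 was low, between 5.73 and 6.38.

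Promoters of 6 called genes are shown, picked because they hold a match to a motif known for genes of their kind. They are 4 higher genes of class II expression and interferon signalling and 2 lower heat shock genes. Whether the marked letters act in these promoters was not tested. Each is the 250 bases before the RefSeq gene start (GRCm38.p6), on the gene's own strand. Capitals mark only the motif named for that gene. H2-Aa (chr17:34287824-34288073, minus strand) and H2-Eb1 (chr17:34305617-34305866, plus strand) encode class II chains and are shown with the Y box CTGATTGG, which NF-Y binds.
H2-Aa: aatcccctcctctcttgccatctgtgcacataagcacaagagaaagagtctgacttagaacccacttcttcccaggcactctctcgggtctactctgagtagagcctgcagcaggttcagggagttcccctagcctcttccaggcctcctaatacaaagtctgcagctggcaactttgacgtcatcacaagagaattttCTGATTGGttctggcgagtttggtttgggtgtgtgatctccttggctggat
H2-Eb1: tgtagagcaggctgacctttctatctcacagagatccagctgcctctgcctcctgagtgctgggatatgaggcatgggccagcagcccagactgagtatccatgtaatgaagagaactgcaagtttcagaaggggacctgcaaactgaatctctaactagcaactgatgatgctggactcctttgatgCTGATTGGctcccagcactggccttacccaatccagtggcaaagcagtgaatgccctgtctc
Igtp (chr11:58199306-58199555, plus strand) and Bst2 (chr8:71537473-71537722, minus strand) are interferon-induced and are shown with the interferon-stimulated response element (GAAA, any 2 bases, GAAA), of which Bst2 has 2 overlapping matches.
Igtp: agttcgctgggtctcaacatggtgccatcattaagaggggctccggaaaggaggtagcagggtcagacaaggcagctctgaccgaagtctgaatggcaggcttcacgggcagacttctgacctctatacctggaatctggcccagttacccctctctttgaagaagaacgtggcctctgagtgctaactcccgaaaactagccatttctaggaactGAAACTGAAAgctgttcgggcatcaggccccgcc
Bst2: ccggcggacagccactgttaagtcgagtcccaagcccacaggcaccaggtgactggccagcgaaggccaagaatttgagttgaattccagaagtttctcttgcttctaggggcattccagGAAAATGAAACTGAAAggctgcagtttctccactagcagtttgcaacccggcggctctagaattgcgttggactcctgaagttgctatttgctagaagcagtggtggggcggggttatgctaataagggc
Hspa1a (chr17:34972157-34972406, minus strand) and Hspa1b (chr17:34959239-34959488, minus strand) encode the inducible HSP70 chaperone and are shown with the heat shock element GAANNTTC.
Hspa1a: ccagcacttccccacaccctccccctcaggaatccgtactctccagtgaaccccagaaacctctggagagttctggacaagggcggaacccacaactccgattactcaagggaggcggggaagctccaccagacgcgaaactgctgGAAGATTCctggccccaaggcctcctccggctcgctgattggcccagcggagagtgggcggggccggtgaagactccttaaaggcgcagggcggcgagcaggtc
Hspa1b: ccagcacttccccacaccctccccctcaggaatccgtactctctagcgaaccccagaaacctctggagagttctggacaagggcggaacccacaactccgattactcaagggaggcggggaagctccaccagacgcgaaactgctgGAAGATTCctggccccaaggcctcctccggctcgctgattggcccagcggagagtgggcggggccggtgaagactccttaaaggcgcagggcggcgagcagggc
The 2 Hspa1 windows differ at 3 of 250 bases (98.8% identical).

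Letters were searched on both strands in the same 250-base window of 27025 genes. The response element was found in 3.463% of all promoters and in 8 of the 13 interferon gamma genes with a sequence (61.5%). CTGATTGG was found in 4.433% of all and in 3 of the 6 class II genes with a sequence, and GAANNTTC in 7.726% of all and in 5 of 8 heat shock genes. Over the tested genes with a sequence the shares were 3.086% for the response element, 5.865% for CTGATTGG and 6.09% for GAANNTTC. Among the 60 higher genes with a sequence each of these 3 motifs was found in 8 (13.3%). Among the 22 lower genes with a sequence CTGATTGG was found in 3 (13.6%), GAANNTTC in 2 (9.09%) and the response element in 0, and of the 4 called interferon gamma genes with a sequence 1 held the response element. CTGATTGG also occurs in the windows of Hspa1a and Hspa1b, and GAANNTTC in those of H2-Aa and Bst2. A match is a description of letters and not of binding.

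MHC class II genes gave the highest median of the lists. These molecules show peptides to CD4+ T cells and are made by macrophages, dendritic cells, B cells and, after interferon gamma, by other cells. Of 9 class II genes tested 6 were higher with dabrafenib and 0 lower, and their median difference was 1.82 against 0.01 over all genes tested. Cd74, the invariant chain, read 12.46 and 13.02 with dabrafenib and 10.36 and 10.42 with trametinib. Both dabrafenib arrays lay above both trametinib arrays, by 2.35 ± 0.38 (5.11-fold, adjusted p = 0.0226). H2-Eb1, a beta chain, read 11.42 and 12.13 against 9.71 and 9.31 (2.27 ± 0.28, 4.83-fold, adjusted p = 0.00997). H2-Ab1 was higher by 1.85 ± 0.31 and H2-Aa, the matching alpha chain, by 2.03 ± 0.41, the latter just inside the threshold (adjusted p = 0.04995). H2-DMa, which helps load peptides, was higher by 1.82 ± 0.23, and it read 9.06 and 9.91 against 7.71 and 7.61. Ciita, the class II transactivator, was near background and was higher by 0.79 ± 0.14 (6.47 and 6.83 against 5.90 and 5.83). The 3 members that did not pass were Ctss (1.24 ± 0.27, adjusted p = 0.0666), H2-DMb2 (0.36 ± 0.17) and H2-Oa (0.01 ± 0.15), whose trametinib and dabrafenib arrays were all under 5.79. Against vehicle, whose arrays are shared by both contrasts, Cd74 changed by 4.27 ± 0.38 with dabrafenib and 1.92 ± 0.38 with trametinib. H2-DMa rose by 2.08 with dabrafenib, and its trametinib value of 0.25 did not pass. The class II median stayed between 1.38 and 2.18 over the 27 alternative analyses, and the number of its genes called ran from 0 to 7.

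**Figure D2:**
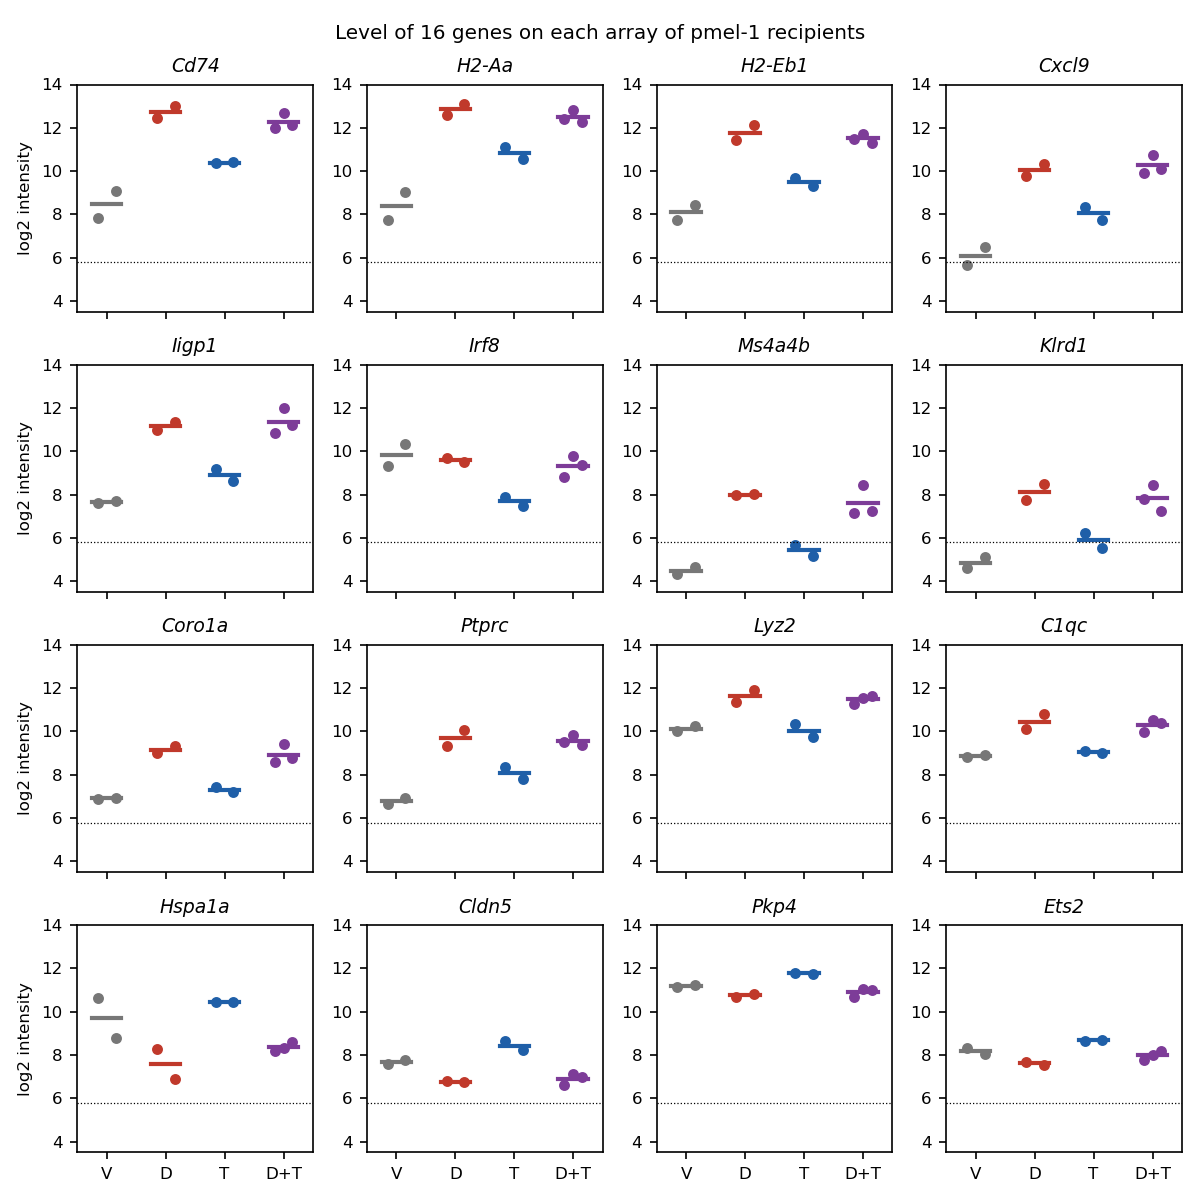
Log2 intensity of 16 genes on each array of pmel-1 recipients, for vehicle (V, 2 arrays), dabrafenib (D, 2), trametinib (T, 2) and both drugs (D+T, 3), with a bar at the group mean and a dotted line at the filter of 5.79. Immune genes are higher on both D arrays than on both T arrays (Cd74 12.46 and 13.02 against 10.36 and 10.42), the 4 genes of the bottom row are lower, and Irf8 in T lies under vehicle.

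Interferon gamma response genes followed the same direction. All 18 tested had a positive difference, 6 passed as higher and 0 as lower, and the median was 1.43. For 17 of them both dabrafenib arrays lay above both trametinib arrays, against 20.7% of all genes. Iigp1, an immunity-related GTPase, read 10.98 and 11.37 with dabrafenib and 9.20 and 8.63 with trametinib, with groups well apart (2.26 ± 0.32, 4.78-fold, adjusted p = 0.0157). Cxcl9, a chemokine that draws T cells through Cxcr3, read 9.79 and 10.34 against 8.33 and 7.76 (2.02 ± 0.34, 4.05-fold, adjusted p = 0.0255). Igtp, whose promoter is printed above, read 11.23 and 11.88 against 10.16 and 9.43 (1.76 ± 0.33, adjusted p = 0.0367), and Ifi47 was higher by 1.60 ± 0.32. Guanylate-binding proteins had some of the widest differences without passing, Gbp6 at 2.11 ± 0.52 (adjusted p = 0.105) and Gbp2 at 1.93 ± 0.48 (adjusted p = 0.109). The spread is visible on the arrays, as Gbp6 read 10.01 and 11.62 with dabrafenib and 9.15 and 8.26 with trametinib. Gbp8, which is not on the list, was higher by 1.82 ± 0.32. Its trametinib arrays and dabrafenib array 1, at 5.75, were not well above background, and its dabrafenib mean lay 1.12-fold above the filter. Cd274, which encodes the checkpoint ligand PD-L1, differed by 0.81 ± 0.29 and did not pass (adjusted p = 0.271). Cxcl10 and Cxcl11, the other ligands of Cxcr3, differed by 0.94 ± 0.45 and 0.16 ± 0.18 and did not pass either. The interferon gamma median stayed between 1.06 and 1.80 over the 27 alternatives, with 0 to 14 genes called.

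Irf8, a factor needed for dendritic cell and monocyte development, differed in its relation to vehicle. It read 9.68 and 9.51 with dabrafenib, 7.89 and 7.48 with trametinib, and a mean of 9.84 in vehicle tumours. The difference between drugs was 1.90 ± 0.37 (3.74-fold, adjusted p = 0.0427). Against vehicle it fell by 2.15 with trametinib (adjusted p = 0.000976), whereas the dabrafenib value of -0.24 ± 0.37 did not pass. Ptprc, the CD45 gene of leukocytes, was ordered otherwise and was lowest in vehicle tumours. It read 6.67 and 6.94 there, against 8.35 and 7.80 with trametinib and 9.31 and 10.08 with dabrafenib. Which cells carried the RNA of Irf8 was not tested. Its call was lost in each of the 4 omissions of an array compared, while its difference stayed between 1.54 and 2.19 over all alternatives.

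Type I interferon genes, which encode antiviral proteins, were less far apart. Of 21 tested 1 was higher, Bst2, which encodes the virion tether tetherin, and 0 were lower, with 20 positive differences and a median of 0.41. Bst2 read 12.26 and 12.83 with dabrafenib and 11.18 and 10.91 with trametinib (2.83-fold, adjusted p = 0.0198). Oasl2 (1.39 ± 0.44), Oas1a (0.95 ± 0.23) and Irf7 (0.88 ± 0.29) did not pass. Rsad2 and Mx1 differed by 0.04 ± 0.34 and 0.02 ± 0.39, although both rose with each drug against vehicle, Rsad2 by 1.48 and 1.44 and Mx1 by 1.27 and 1.24. For MHC class I and antigen processing 2 of 14 genes were higher and 0 lower, with a median of 0.61. Both encode catalytic subunits of the immunoproteasome. Psmb8 read 11.05 and 11.40 against 9.82 and 9.58 (1.52 ± 0.19, 2.88-fold, adjusted p = 0.00997), and Psmb9 was higher by 1.42 ± 0.23. The class I heavy chain H2-K1 read 14.71 and 14.70 against 14.34 and 14.27, close to the top of the scale, and did not pass (0.40 ± 0.09, adjusted p = 0.0794). B2m, the light chain, differed by 0.20 ± 0.11. Outside the list 2 other class I genes were called higher in limma, H2-M3 (1.37 ± 0.21, adjusted p = 0.0198) and H2-Q5 (1.32 ± 0.23, adjusted p = 0.0314). Nlrc5, the class I transactivator, stood at 1.25 ± 0.26 (adjusted p = 0.0576).

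**Figure D3:**
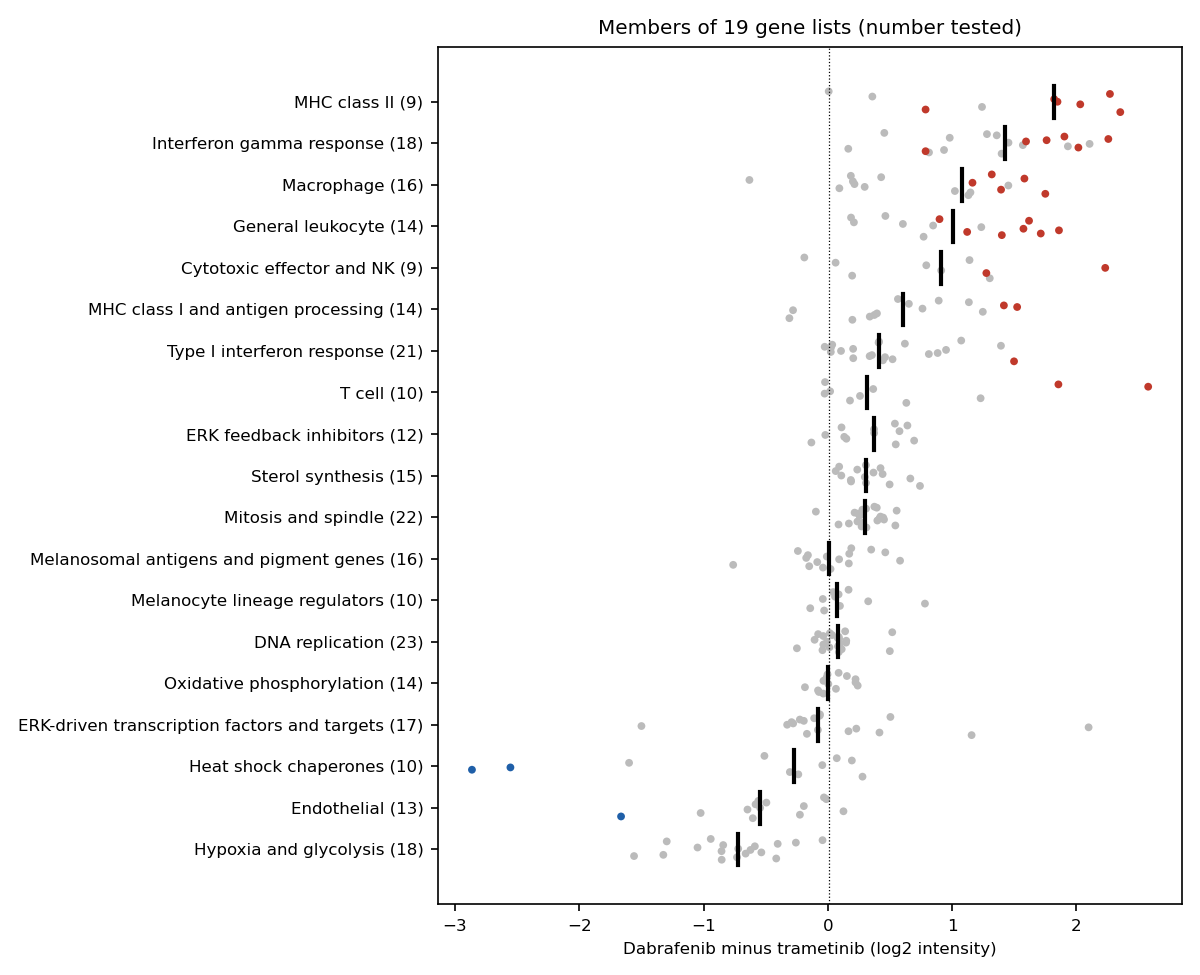
Dabrafenib minus trametinib (log2 intensity) for each tested member of 19 gene lists, red where higher and blue where lower at an adjusted p of 0.05, grey otherwise, with a black bar at the list's median and a dotted line at the median of all genes. Medians run from 1.82 for MHC class II to -0.73 for hypoxia and glycolysis, and pigment genes, lineage regulators and oxidative phosphorylation centre on 0.01, 0.07 and 0.00.

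Pan-leukocyte genes moved beside the interferon genes. All 14 tested had a positive difference, 7 were higher and 0 lower, and the median was 1.01. Ptprc, which encodes CD45, read 9.31 and 10.08 with dabrafenib and 8.35 and 7.80 with trametinib (1.62 ± 0.27, 3.07-fold, adjusted p = 0.0255). Coro1a, an actin regulator of blood cells, read 9.01 and 9.33 against 7.42 and 7.19 (1.86 ± 0.23, 3.63-fold, adjusted p = 0.00997). Cd52 was higher by 1.71 ± 0.23 and Cd48 by 1.40 ± 0.19. The mean level of the 14 genes was 8.50 and 8.99 on the dabrafenib arrays and 7.88 and 7.54 on the trametinib arrays, against 7.20 and 7.27 in vehicle tumours, and the part of leukocyte RNA in the class II and interferon differences was not tested. Among macrophage genes 5 of 16 were higher and 0 lower, with a median of 1.08. Lyz2, a lysozyme, read 11.35 and 11.90 against 10.36 and 9.73 (1.58 ± 0.30, adjusted p = 0.0407), and C1qc, a complement component, 10.10 and 10.79 against 9.09 and 9.01 (1.39 ± 0.23, adjusted p = 0.0248). Tyrobp was higher by 1.32 ± 0.22, Aif1 by 1.75 ± 0.33 and Fcgr1 by 1.16 ± 0.22. Csf1r, the receptor that sustains macrophages, stood at 1.45 ± 0.32 (adjusted p = 0.0666). Cd68 (0.30 ± 0.15), Cd14 (0.09 ± 0.22) and the alternatively activated marker Mrc1 (0.43 ± 0.32) did not pass. Clec7a, the beta-glucan receptor of myeloid cells, was outside the lists and read 9.53 and 9.97 against 7.99 and 7.58 (1.97 ± 0.20, 3.91-fold, adjusted p = 0.00465).

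Lymphocyte genes were called in small numbers. Of 10 T cell genes tested 2 were higher and 0 lower, with a median of 0.31. Ms4a4b, a membrane protein of T cells, read 7.97 and 8.03 with dabrafenib and 5.68 and 5.16 with trametinib (adjusted p = 0.0137). Its trametinib arrays were not well above background, and its dabrafenib mean lay 4.62-fold above the filter. The log2 difference had a 95% interval of 1.79 to 3.37. The probe set annotated as Trbv1, a variable segment of the T cell receptor beta chain, was higher by 1.86 ± 0.33 (adjusted p = 0.0316). It read 8.68 and 9.02 against 7.41 and 6.57, and whether it reads that segment alone was not tested. Cd8a, the co-receptor of cytotoxic T cells, read between 6.42 and 6.54 on all 4 arrays (0.02 ± 0.11, 95% interval -0.22 to 0.26), and against vehicle it stood at 0.09 with dabrafenib and 0.07 with trametinib. Cd3e differed by 0.18 ± 0.15 and Cd3g, whose trametinib arrays were not well above background, by 1.23 ± 0.27 (adjusted p = 0.0731). Of 9 cytotoxic and NK genes 2 were higher and 0 lower, with a median of 0.91. Klrd1, which encodes CD94, read 7.76 and 8.47 against 6.21 and 5.55 (2.23 ± 0.36, 4.70-fold, adjusted p = 0.0226). Trametinib array 2 and both vehicle arrays were not well above background for Klrd1, so its fold is uncertain. Gzma, a granzyme, read 7.12 and 7.45 against 5.99 and 6.03 (1.28 ± 0.23, adjusted p = 0.0342). Gzmb stood at 0.91 ± 0.31 and Prf1, the perforin gene, at -0.19 ± 0.14, and neither passed. Among 5 B cell genes Blnk was higher (0.88 ± 0.15, adjusted p = 0.0278), an adaptor that macrophages also express, while Ighm stood at -0.07 ± 0.11. In limma 0 of 10 checkpoint and costimulation genes passed, with 3 higher and 1 lower at an unadjusted p under 0.05.

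The 2 genes furthest down with dabrafenib were Hspa1a and Hspa1b, which encode inducible HSP70. Hspa1a read 8.25 and 6.91 with dabrafenib and 10.43 and 10.46 with trametinib (-2.86 ± 0.51, 7.28-fold lower, adjusted p = 0.0314). Hspa1b read 10.04 and 8.82 against 12.06 and 11.92 (-2.55 ± 0.47, 5.87-fold lower, adjusted p = 0.0342). The dabrafenib arrays differed from each other more than the trametinib arrays did. The coding sequences of these neighbours are nearly alike, so the probe sets may not separate them and they count as uncertain as a pair. Vehicle tumours read 10.62 and 8.80 for Hspa1a, 1 above both trametinib arrays and 1 between the drugs, and the change against vehicle was -2.13 with dabrafenib (adjusted p = 0.00622), whereas the 0.74 ± 0.51 with trametinib did not pass. Of 10 heat shock chaperone genes these 2 were lower and 0 higher, with a median of -0.27. Hspb1 stood at -1.60 ± 0.44 and Hsph1 at -0.51 ± 0.14 without passing. The constitutive chaperone Hspa8 differed by -0.04 ± 0.11.

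Cldn5, a claudin of endothelial tight junctions, read 6.79 and 6.76 with dabrafenib and 8.63 and 8.24 with trametinib (-1.66 ± 0.27, 3.17-fold lower, adjusted p = 0.0255). It was the 1 endothelial gene of 13 that passed. The median of the list was -0.54, with 12 negative differences. For 10 of its genes both dabrafenib arrays lay below both trametinib arrays, against 19.6% of all genes. Emcn (-1.02 ± 0.29), Esam (-0.65 ± 0.15) and Pecam1 (-0.58 ± 0.19) did not pass, and Eng (0.13 ± 0.12) was the exception in sign. Against vehicle the list's median was -0.08 with dabrafenib and 0.50 with trametinib. Mcam, an adhesion molecule of pericytes and of melanoma cells, was lower (-0.58 ± 0.11) and was the 1 call among 8 smooth muscle and pericyte genes, a call kept in 0 of the 13 omissions of 1 array. Adgrf5, an adhesion receptor of endothelium and lung, fell outside the lists and was lower too (-1.03 ± 0.18, adjusted p = 0.0324). Its call was lost in all 4 omissions of an array compared.

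Other lower genes included matrix-modifying and membrane proteins. P4ha2, a collagen prolyl hydroxylase, read 6.97 and 6.37 with dabrafenib and 7.84 and 8.02 with trametinib (-1.26 ± 0.20, 2.40-fold lower, adjusted p = 0.0248). P3h2, another collagen prolyl hydroxylase, stood at -0.90 ± 0.17 and Ero1a, an oxidase for disulphide bonds in the endoplasmic reticulum, at -0.98 ± 0.17, both past the threshold. Sdc1, a heparan sulphate proteoglycan, stood at -1.13 ± 0.20 and the phosphatase gene Ptp4a3 at -1.15 ± 0.17, also past it. Ets2, an ETS transcription factor, read 7.67 and 7.55 against 8.65 and 8.69 (-1.06 ± 0.15, 2.09-fold lower, adjusted p = 0.013), and the junction gene Pkp4 10.69 and 10.81 against 11.79 and 11.75 (-1.02 ± 0.13, adjusted p = 0.00997). Both Ets2 and Pkp4 moved in opposite directions against vehicle, Ets2 at -0.59 with dabrafenib and 0.48 with trametinib, and Pkp4 at -0.44 and 0.58, with all 4 values past the threshold. Tmem82 rose with each drug, by 0.65 with dabrafenib and 1.58 with trametinib. Mpped2, St6galnac2 and Acot2 were also lower, at -0.95 ± 0.19, -0.99 ± 0.17 and -0.91 ± 0.13.

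Hypoxia and glycolysis genes, which HIF1 induces, had negative differences for 18 of 18 tested and a median of -0.73, yet 0 passed in limma, with 12 lower and 0 higher at an unadjusted p under 0.05. The list holds the prolyl hydroxylase gene P4ha1 but neither P4ha2 nor Ero1a, which both passed as lower. Slc2a1, the glucose transporter GLUT1, read 11.03 and 9.99 with dabrafenib and 11.68 and 11.94 with trametinib (-1.30 ± 0.33, adjusted p = 0.112). Bnip3, a mitophagy receptor, read 11.96 and 10.46 against 12.59 and 12.95 (-1.56 ± 0.41, adjusted p = 0.121). Dabrafenib array 2 was the low one for both. Adm, the peptide adrenomedullin, came nearest to the threshold (-0.85 ± 0.18, adjusted p = 0.0538). Without dabrafenib array 1 12 of the genes passed, and over the 27 alternatives the median ran from -1.12 to -0.30.

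Genes downstream of ERK gave no call between the drugs. Of 12 feedback inhibitors 0 passed in limma, with 1 higher and 0 lower at an unadjusted p under 0.05, and the median was 0.37. Dusp6, the ERK phosphatase, read 12.60 and 11.26 with dabrafenib and 11.63 and 10.84 with trametinib (0.70 ± 0.37, 95% interval -0.12 to 1.51). Spry2 and Spry4, inhibitors of receptor signalling to ERK, stood at 0.64 ± 0.38 and 0.54 ± 0.64. Dabrafenib array 1 stood apart, with a mean level of the 12 genes of 9.64 against 8.85 on dabrafenib array 2, 9.03 and 8.80 on the trametinib arrays, and 9.81 and 9.91 in vehicle tumours. Over the alternatives the median of the list ran from -0.03 to 0.66. Against vehicle Dusp6 stood at -0.82 ± 0.37 with dabrafenib, which did not pass, and fell by 1.51 with trametinib (adjusted p = 0.00769), and the difference between these is the 0.70 above. Of 17 ERK-driven factors and targets 0 passed, with 1 higher and 1 lower at an unadjusted p under 0.05. Etv5 showed the widest spread, at 11.39 and 7.27 with dabrafenib and 7.67 and 6.79 with trametinib (2.10 ± 1.10, adjusted p = 0.504). Fos, an immediate early gene, read 9.58 and 9.23 against 10.89 and 10.92 (-1.50 ± 0.37, adjusted p = 0.108). Ccnd1, which encodes cyclin D1, read 11.08 and 9.51 against 8.97 and 9.30 (1.16 ± 0.41, adjusted p = 0.271). Etv4, Egr1 and Hmga2, an oncofetal chromatin protein, were low with both drugs, and their differences were 0.23 ± 0.12, -0.17 ± 0.34 and 0.26 ± 0.35.

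**Figure D4:**
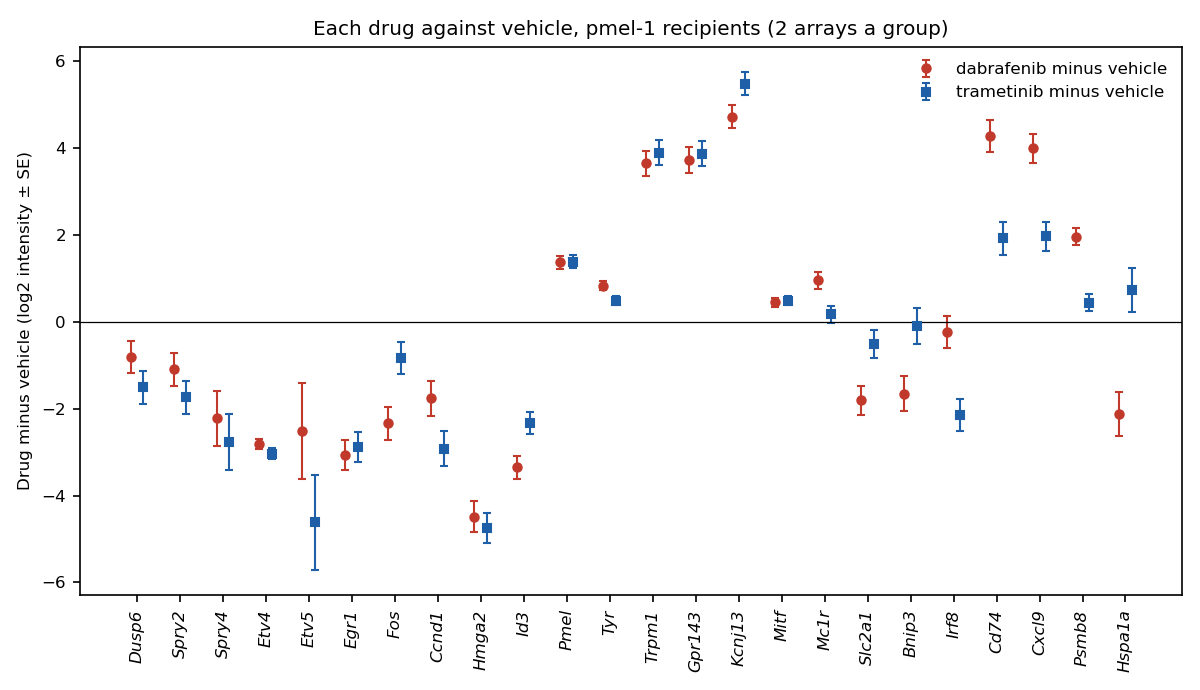
Change of 24 genes against pmel-1 vehicle (log2 intensity ± SE, limma) with dabrafenib (red circles) and trametinib (blue squares), 2 arrays a group and the vehicle arrays shared. The drugs lie side by side for pigment genes (Pmel 1.37 and 1.38) and for Etv4 (-2.81 and -3.04), and apart for Irf8, Cd74, Cxcl9, Psmb8 and Hspa1a.

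Melanocytic genes, which BRAF pathway block is known to raise, gave no call between the drugs. Pmel, the antigen of the transferred T cells, read between 13.95 and 14.17 on the 4 arrays, with overlapping groups. Its difference was -0.01 ± 0.15 (95% interval -0.34 to 0.32). The highest values of these arrays were 14.98 to 15.06, so Pmel lay towards the top of the scale, where differences may be compressed. Of 16 melanosomal and pigment genes 0 passed in limma, with 3 higher and 1 lower at an unadjusted p under 0.05 and a median of 0.01. Against vehicle the median was 1.69 with dabrafenib and 1.61 with trametinib. Kcnj13, a potassium channel, had the largest gap of the list at -0.76 ± 0.27 (adjusted p = 0.275) and rose by 4.72 with dabrafenib and 5.48 with trametinib. Mitf, the master regulator of the lineage, differed by -0.04 ± 0.10 (95% interval -0.25 to 0.17) and Sox10 by 0.09 ± 0.10. Mc1r, the melanocortin receptor, read 9.98 and 10.05 against 9.35 and 9.12 (0.78 ± 0.19, adjusted p = 0.102), and 0 of the 10 lineage regulators passed, with 1 higher and 0 lower at an unadjusted p under 0.05. Among 13 neural crest and glial genes 1 was higher, Fabp7, a fatty acid-binding protein of glia and melanoma. It read 11.21 and 11.09 with dabrafenib and 9.75 and 9.64 with trametinib (1.45 ± 0.16, 2.73-fold, adjusted p = 0.0099), and its call was kept in 3 of the 4 omissions of an array compared.

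Of the proliferation lists 0 members passed in limma, while Pole2, a replication polymerase subunit outside them chosen after its value was seen, was higher (0.49 ± 0.09, adjusted p = 0.0352). Of 22 mitosis and spindle genes 21 had positive differences, 8 higher and 0 lower at an unadjusted p under 0.05, with a median of 0.30. Plk1, a mitotic kinase, read 10.06 and 10.35 with dabrafenib and 9.68 and 9.62 with trametinib (0.55 ± 0.17, adjusted p = 0.19), and Mki67 differed by 0.22 ± 0.18. The median of 23 DNA replication genes was 0.08, with 2 higher and 0 lower at an unadjusted p under 0.05, although against vehicle it was -1.30 with dabrafenib and -1.31 with trametinib. All 15 sterol synthesis genes had positive differences with a median of 0.31, 6 higher and 0 lower at an unadjusted p under 0.05. Idi1, an enzyme of isoprenoid synthesis, stood at 0.66 ± 0.19. Fibroblast and matrix genes were spread between arrays rather than between drugs. Col1a1, a collagen chain, read 9.35 and 11.69 with dabrafenib and 10.88 and 9.74 with trametinib (0.21 ± 0.76, 95% interval -1.46 to 1.89), so a difference of several fold either way could not be seen. The arrays high in Col1a1 were the ones high in Adipoq.

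Further calls lay outside the lists and near background. Adgb, which encodes androglobin, a large protein with a globin domain, read 6.64 and 7.21 with dabrafenib. Both trametinib arrays, at 4.49 and 4.20, and both vehicle arrays were not well above background. Adgb was called higher than with trametinib (adjusted p = 0.00465), and its dabrafenib mean lay 2.19-fold above the filter. Its call was kept in 3 of the 4 omissions of an array compared. Calhm6, a channel protein induced by interferon, was higher as well (7.13 and 7.93 against 5.72 and 5.22, adjusted p = 0.0166). Its trametinib arrays were not well above background, and its dabrafenib mean lay 3.34-fold above the filter. The log2 difference had a 95% interval of 1.40 to 2.73.

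Levels in the other pmel-1 tumours placed the called genes. These counts use the same dabrafenib and trametinib arrays as the calls and are a description only. The mean of the tumours given both drugs lay nearer to dabrafenib than to trametinib for 81 of 81 higher genes and 26 of 26 lower genes, against 64.7% of all genes tested, most of which differ little between the drugs. For Cd74 the 3 combination arrays averaged 12.26, for Hspa1a 8.36 and for Irf8 9.33. In limma 151 genes (1.1%) differed between the combination and trametinib, and 0 between the combination and dabrafenib, with 246 (1.78%) of the latter at an unadjusted p under 0.05. That last share is smaller than the threshold alone would give. With so few arrays, 0 calls do not show the combination and dabrafenib to be alike. Vehicle tumours lay below both drugs for 56 of the 81 higher genes, between them for 14 and above both for 11. Of the 26 lower genes vehicle lay above both for 13, between for 11 and below both for 2. Each drug on its own against vehicle changed many more genes than separated the drugs, 5709 (41.4%) with dabrafenib and 5323 (38.6%) with trametinib. The vehicle arrays were also lower in the 3′ minus 5′ difference, which these 2 counts cannot separate from the drugs.

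**Figure D5:**
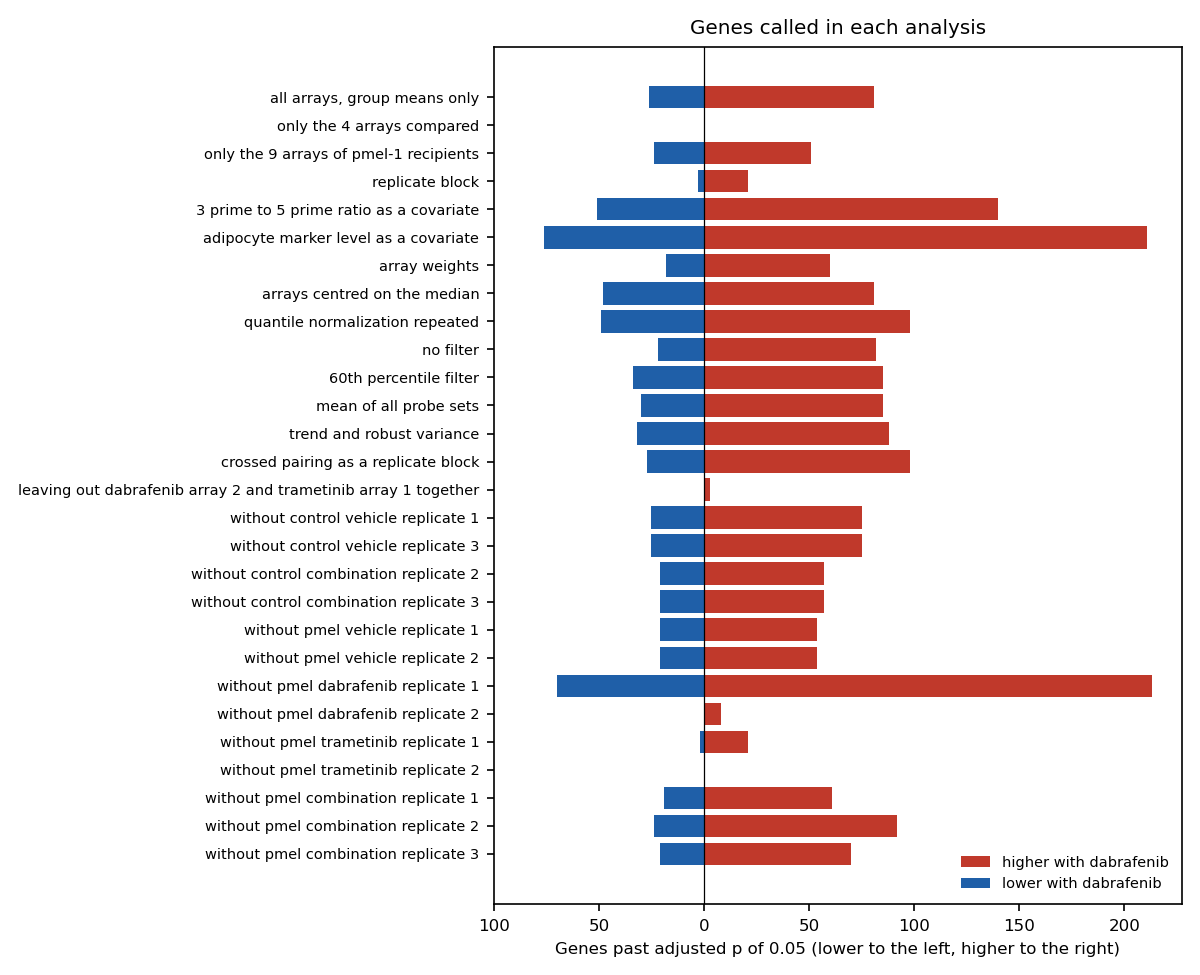
Number of genes lower (blue, left) and higher (red, right) with dabrafenib at an adjusted p of 0.05, in the reported analysis (top bar, 81 and 26), in 14 other analyses and with each of 13 arrays left out. The total count runs from 0, with only the 4 arrays compared, to 211 higher and 76 lower with the adipocyte level as a covariate.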

How the data were processed

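Total RNA of SM1 tumours was measured on 13 Affymetrix mouse arrays of a single design. Deposited values are on the log2 scale, 1 for each probe set, and come from RMA in the affy package, per the submitters' processing notes, which give no versions. Precision is limited by how few arrays there are. Of 45101 probe sets 34945 had exactly 1 gene symbol in GEO's platform annotation, 932 several, 9160 none and 64 were controls. Each of 18193 symbols kept the probe set with the highest mean, and 13785 were tested, those with 2 or more arrays over 5.79, which is percentile 40 of the whole table. No detection calls were used.

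Group means of all 6 groups were fitted with limma 3.58.1 (R 4.3.3, 7 residual degrees of freedom) with Benjamini-Hochberg adjustment of the p-values separately for every contrast. An exact two-sided permutation test of 2 against 2 arrays cannot go below p = 0.333 and was not used. The fit was tested on simulated data. Same-numbered arrays did not consistently deviate together: over 5 such pairs the correlation of deviations ran from -0.465 to 0.449, and it was -0.374 for dabrafenib array 1 with trametinib array 1. Alternatives changed the samples, covariates, scaling, filter, probe set rule and variance model.

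Named genes are up to 15 higher and 15 lower with the largest difference among calls without overlap, leaving out RIKEN, Gm, LOC and clone names and symbols whose other probe set went the opposite way at p under 0.05 (0 such calls), plus, for each of 43 lists, its first gene and at most 4 members ranked first by p. Other names were chosen after their values were seen. The comparison, the members and the lists were chosen with earlier results of these data known. Promoters come from RefSeq (GRCm38.p6), matched by symbol for 60 of 81 higher and 22 of 26 lower genes.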

Additional observations from a re-analysis of the deposited data

How the results depend on the processing

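Numbers of genes are given as higher, lower and at least 2-fold different with dabrafenib, against 81, 26 and 68 as reported. They were 0, 0 and 0 with only the 4 arrays compared (1245 at an unadjusted p under 0.05 in limma), 51, 24 and 49 with only the 9 arrays of pmel-1 recipients, 140, 51 and 100 with the 3′ minus 5′ difference as a covariate, 211, 76 and 128 with the adipocyte level as a covariate, and 60, 18 and 51 with array weights. Centring on the median gave 81, 48 and 77, and repeated quantile normalization 98, 49 and 82. With the replicate number as a block they were 21, 3 and 23, and with the pairing crossed, chosen after seeing the data, 98, 27 and 87. Same-numbered arrays share only a number here. Without dabrafenib array 2 and trametinib array 1 together, also chosen afterwards, they were 3, 0 and 3. Leaving out each array in turn gave 0 to 213 higher, 0 to 70 lower and 0 to 209 at least 2-fold different. Leaving out an array of a group that was not compared gave 54 to 92 higher and 19 to 25 lower. Without filter, with the 60th percentile, with the mean of probe sets and with trend and robust variance the counts stayed within 1.5 times. The 47 named genes that passed kept their direction in all of these, but of their 1266 values 908 kept the call and 358 lost it, and 70 values of other named genes gained one. The medians of the interferon gamma, class II, macrophage and general leukocyte lists stayed positive and those of the hypoxia, endothelial and heat shock lists negative in all 27 alternatives. With 2 arrays a side, a difference that did not pass is not shown to be absent.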

Other observations

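Among calls outside the lists, chosen here after their values were seen, 3 inflammatory caspase genes were higher with dabrafenib than with trametinib. Casp12 read 9.71 and 9.73 against 8.44 and 8.03 (1.49 ± 0.18, adjusted p = 0.00997), Casp1 9.67 and 8.81 against 7.97 and 7.62 (1.44 ± 0.25, adjusted p = 0.0285) and Casp4 10.52 and 10.17 against 9.18 and 9.35 (1.08 ± 0.20, adjusted p = 0.0342). For Casp1 and Casp4 it was dabrafenib array 1, the array lower in Cd74 and Ptprc, that read higher. Limma adjusted the p-values over all 13785 genes. Other such calls were Ntrk3, the receptor for neurotrophin-3, which read 8.45 and 8.64 against 6.92 and 6.96 (1.61 ± 0.21), Pmp2, a peripheral myelin protein, at 7.55 and 7.68 against 6.33 and 6.37 (1.27 ± 0.24) and Ptprz1, a receptor phosphatase, at 10.07 and 10.31 against 9.26 and 9.31 (0.91 ± 0.13). For Ntrk3 3 other probe sets of the 8 on the array went the opposite way without an unadjusted p under 0.05. Of the 13 neural crest and glial genes listed 1 was higher and the median was 0.03.

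A further set of calls had trametinib under vehicle, as Irf8 did. Slc22a23 changed against vehicle by -0.57 with dabrafenib and -1.85 with trametinib, Mmp16, a membrane-type metalloproteinase, by -0.06 and -1.17, Egflam by -0.41 and -1.53, and Chl1, a cell adhesion molecule, by -0.43 and -1.60. All 4 passed with trametinib, whereas with dabrafenib Slc22a23 alone did. Between the drugs Slc22a23 was higher with dabrafenib by 1.28 ± 0.16, Mmp16 by 1.10 ± 0.19, Egflam by 1.12 ± 0.22 and Chl1 by 1.16 ± 0.23, with adjusted p-values from 0.00997 to 0.0458 in limma. The Chl1 call was kept in 1 of the 13 omissions of 1 array, and 2 of its other probe sets went the opposite way without an unadjusted p under 0.05.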
